A study of Homo sapiens with 4 samples.

Results

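The glutathione and cystine genes GCLM, GCLC, SLC7A11, GSR and GPX2, were examined in maps of where the transcription factor BACH1 sits on the genome in human airway epithelial lines. The peaks were chosen by position alone: a peak belonged to a gene when its summit lay in a fixed window around that gene on the hg19 build, whatever its strength. The genes and windows themselves were chosen with earlier results of these data known, so their ranks are a description and not an unselected finding. The windows, in kb, ran from 94302 to 94425 on chromosome 1 for GCLM, from 53312 to 53460 on chromosome 6 for GCLC, from 139035 to 139214 on chromosome 4 for SLC7A11, from 30485 to 30636 on chromosome 8 for GSR and from 65355 to 65460 on chromosome 14 for GPX2. They held 15 of the 13661 deposited peaks, namely 10 of 10246 in Calu3 and 5 of 3415 in 16HBE14o-. The study's title names the question of whether BACH1 modulates expression of CFTR, and these genes were present in its lists as part of the whole genome. Calu3 is a human lung adenocarcinoma line and 16HBE14o- a line of human bronchial epithelial cells. Both were grown in DMEM with 10% FBS, both were precipitated with the same rabbit antibody against BACH1, and the labels name no treatment or genetic change in either. Each line had 2 ChIP-seq replicates, which the authors joined into 1 list of peaks, so no spread between replicates stands behind any value and no test between the lines was possible. Binding was measured and expression was not.

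Glutathione is the main small thiol antioxidant of the cell. Cystine enters through SLC7A11, the transport subunit of system xc-, and is reduced to cysteine. GCLC, the catalytic subunit, and GCLM, the modifier subunit, form glutamate-cysteine ligase, which joins cysteine to glutamate in the rate-limiting step of synthesis. GPX2 is an epithelial glutathione peroxidase that uses glutathione to reduce peroxides, and GSR, glutathione reductase, returns the oxidised form to use. Genes of this pathway carry antioxidant response elements, short DNA motifs that BACH1 occupies with small MAF proteins as a repressor and that NRF2 occupies with the same partners as an activator. Haem makes BACH1 leave such elements. The motif contains TGACNNNGC, in which N is any base.

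SLC7A11 and GSR had no entry among the RefSeq promoters used, so only the promoters of GCLM, GPX2 and GCLC are shown. In Calu3 each of these genes has a BACH1 peak within 1 kb of the start-side end that its window implies, as do SLC7A11 and GSR. The letters of the promoters shown differ. They are RefSeq sequences of the GRCh38.p14 build, minus strand, covering the 250 bases before the annotated start, and capitals mark a match to TGACNNNGC on either strand.
GCLM, chr1:93909431-93909680: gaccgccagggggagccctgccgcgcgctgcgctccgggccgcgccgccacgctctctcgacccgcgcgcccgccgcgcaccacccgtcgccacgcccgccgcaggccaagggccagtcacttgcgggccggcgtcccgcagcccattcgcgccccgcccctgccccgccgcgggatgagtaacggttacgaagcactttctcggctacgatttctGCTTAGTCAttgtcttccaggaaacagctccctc
GPX2, chr14:64942746-64942995: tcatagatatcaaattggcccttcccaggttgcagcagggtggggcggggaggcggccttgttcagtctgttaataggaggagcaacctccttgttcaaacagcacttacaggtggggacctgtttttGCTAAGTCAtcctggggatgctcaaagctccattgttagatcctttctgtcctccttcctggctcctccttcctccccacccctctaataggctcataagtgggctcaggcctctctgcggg
GCLC, chr6:53545102-53545351: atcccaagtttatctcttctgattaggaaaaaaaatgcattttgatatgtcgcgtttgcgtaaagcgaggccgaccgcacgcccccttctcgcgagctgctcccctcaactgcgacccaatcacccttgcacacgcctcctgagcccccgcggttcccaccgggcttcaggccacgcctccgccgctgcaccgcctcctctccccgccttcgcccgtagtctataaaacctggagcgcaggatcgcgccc
The match in GCLM, GCTTAGTCA, lay 34 to 26 bases before the start, and that in GPX2, GCTAAGTCA, lay 122 to 114 bases before it. Read on the opposite strand they are TGACTAAGC and TGACTTAGC. GCLC had no match in this window. The motif was searched on both strands in 300 bases, the last 50 of them after the start, and 13.3% of the 35116 RefSeq promoters held it, so a match in 2 of 3 promoters is a description of these letters and not of a bound site. The AP-1 core TGANTCA, a palindrome, was in 7.71% of promoters, and TGANTCAGC, which contains that core and can overlap TGACNNNGC, was in 1.36%. Neither was in these 3. Because the sequences and the peaks are on different builds, the distance between a match and a summit was not measured.

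Distances from a peak to a gene were taken from the windows, which reach 50 kb beyond each gene at a resolution of 1 kb. The gene lengths they imply were 23 kb for GCLM, 48 kb for GCLC, 79 kb for SLC7A11, 51 kb for GSR and 5 kb for GPX2. These differed from the RefSeq lengths by -1.2 to 1.4 kb, so a distance is good to about 1 kb at best. Within 1 kb of an end or start means the end that the windows imply, not an annotated start on hg19. All 5 genes are read from the minus strand, and their start is therefore the end with the higher coordinate. Strength is given as the fold enrichment in Calu3 and as the peak signal, in an unstated unit, in 16HBE14o-. Rank 1 is the strongest peak of a list, and the percentile is the share of the list that is weaker. These scales and ranks cannot be set against each other between the lines.

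Within 1 kb of the implied start-side end, BACH1 peaks lay at all 5 genes in Calu3 and at GCLM and SLC7A11 in 16HBE14o-. The strongest were those of GCLM and SLC7A11, which were near the top of both lists. For GCLC the strongest peak lay about 3 kb upstream of the start-side end in both lines. For GPX2 a peak lay at that end in Calu3 only. For GSR a peak of lower rank lay at that end in Calu3, with no peak in 16HBE14o-. The weakest of the start-side peaks in Calu3 was that of GCLC, at rank 4977, against rank 2951 for GSR. The share of all peaks that lie near a gene start was not analysed here, so these positions are a description of the 5 genes and not a difference from the rest of the lists.

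**Figure D1:**
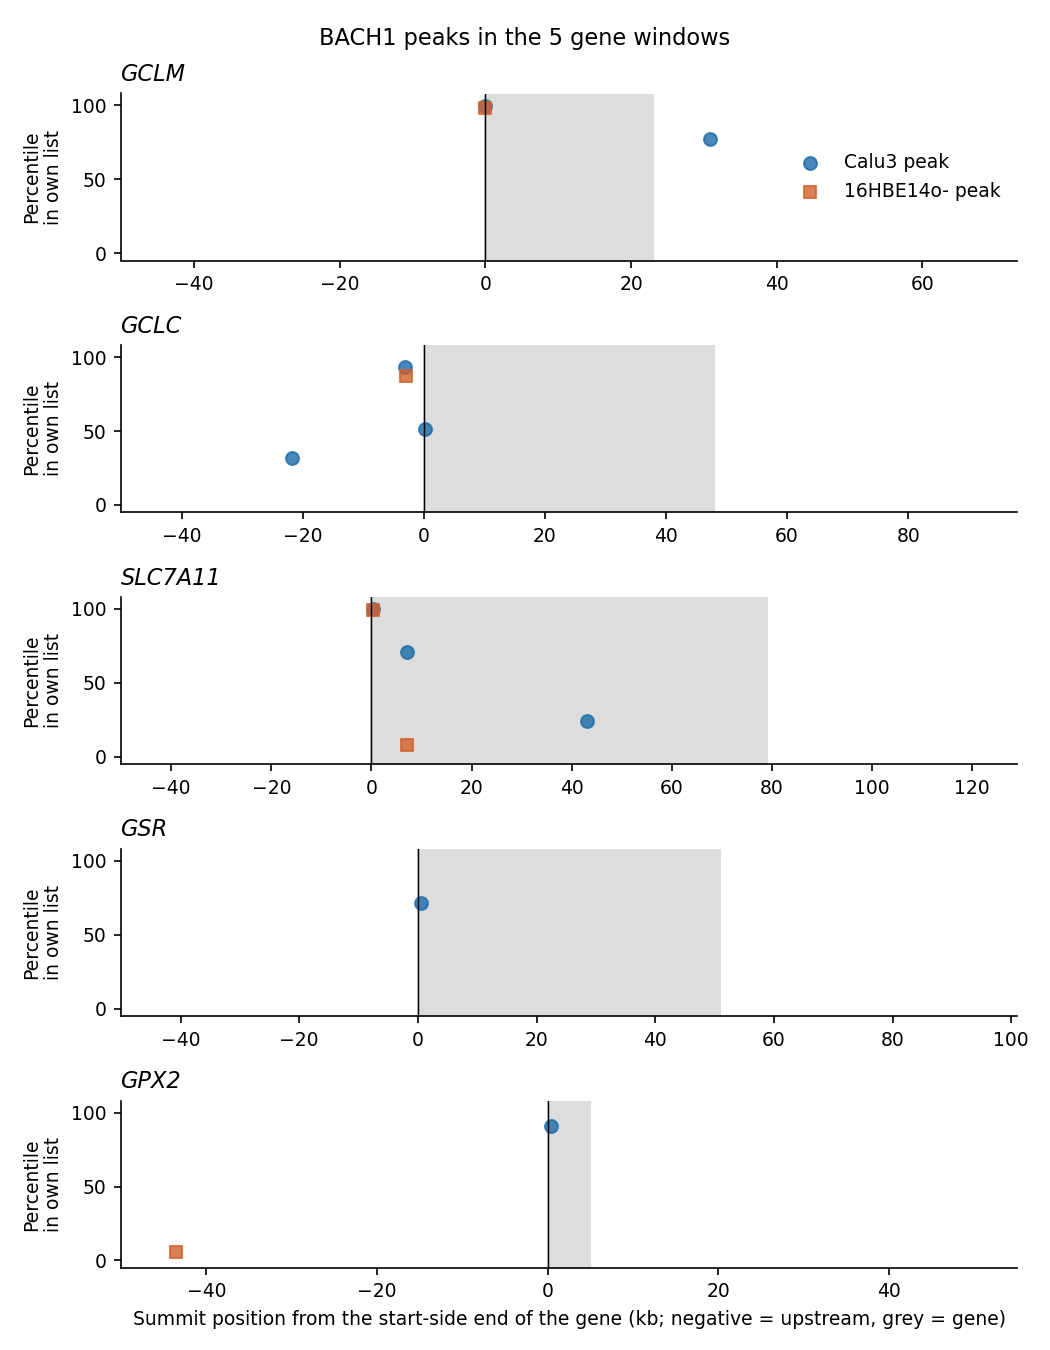
Each panel plots the summits in the window of 1 gene against distance from the start-side end (kb, upstream negative, gene in grey) and the vertical axis gives the percentile of the peak in its own list. Calu3 peaks (circles) lie at the start-side end of every gene, and those of GCLM and SLC7A11 coincide with a 16HBE14o- peak (squares) above the 98th percentile.

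SLC7A11, the cystine importer, had the strongest 16HBE14o- peak of the 5 genes. That peak, from 139163573 to 139163636 on chromosome 4, had a signal of 171 and ranked 32, above 99.1% of its list. The Calu3 peak at the same place, from 139163401 to 139163848, had a fold enrichment of 31.0 with a −log10 q of 121 and ranked 35, above 99.7% of its list. Ranked by the −log10 p or −log10 q instead, it was at place 71. By strength both were in the upper 1% of their lists, and their summits were 13 bp apart, within 1 kb of the start-side end.

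The 16HBE14o- peak at SLC7A11 was only 64 bp wide. In that list 98.4% of peaks were exactly 240 bp wide and 54 were narrower, all of them among the 77 strongest peaks. What sets the widths of that list is unknown, so the 64 bp are not read here as the extent of binding. The Calu3 counterpart was 448 bp wide, wider than 93.8% of its list.

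A further site lay inside SLC7A11, about 7 kb from the start-side end, and was also present in both lines. In Calu3 it spanned 139156728 to 139157117 and ranked 2980, at a fold enrichment of 5.71 and a −log10 q of 10.4. In 16HBE14o- it ran from 139156722 to 139156961, with a signal of 21.1, at rank 3146. Its percentile was 70.8 in Calu3 and 7.88 in 16HBE14o-, so it was in the upper part of one list and near the bottom of the other. The lists hold 10246 and 3415 peaks, so a similar rank gives an unlike percentile. This contrast therefore does not show a difference in binding between the lines. Its summits were 16 bp apart. The distance between this site and the one at the start was 6763 bp in Calu3 and 6766 bp in 16HBE14o-.

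The last SLC7A11 peak, in Calu3 from 139120814 to 139120994, lay inside the gene 36 kb from its far end. It was the weakest of the 10 Calu3 peaks, with a fold enrichment of 3.17 at rank 7720 and a deposited q of 0.148. The other 9 had a q under 0.05, as did 73.3% of the whole Calu3 list. The closest 16HBE14o- summit was 35917 bp away.

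Windows as wide as that of SLC7A11 were laid end to end over chromosomes 1 to 22 and X, the gene's own stretch included, to show how common such findings are. Of 16331 windows, 36.6% held a Calu3 peak and 14.1% a 16HBE14o- peak, so a peak in such a window was not rare. A Calu3 peak as strong as that of SLC7A11 was in 33 windows (0.202%), and a 16HBE14o- peak as strong was in 31 (0.19%). Windows with a peak were thus common and windows with one of this strength few. The number as strong follows largely from the rank of the peak, 35 in Calu3 and 32 in 16HBE14o-, and is not separate support. The same holds for the other genes.

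GCLM, the modifier subunit of glutamate-cysteine ligase, had the strongest Calu3 peak of the 5 genes. It ran from 94374433 to 94375356 on chromosome 1, had a fold enrichment of 33.7 with a −log10 q of 160 and ranked 25. At 924 bp it was wider than 99.9% of the Calu3 peaks. The 16HBE14o- peak ran from 94374922 to 94375161, had a signal of 135 and ranked 62, above 98.2% of its list. Both summits were within 1 kb of the start-side end, on which the promoter with the match GCTTAGTCA also lies, and they were 30 bp apart.

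A weaker Calu3 peak in the GCLM window, from 94344033 to 94344277, lay 8 kb beyond the far end of the gene, on the side where DNTTIP2 is the next gene in RefSeq. It had a fold enrichment of 6.61 and rank 2307, and no counterpart in 16HBE14o-. Where DNTTIP2 lies on hg19 was not analysed, so this peak cannot be given to GCLM by position alone. Of 23783 windows of the same width as that of GCLM, 28.3% held a Calu3 peak and 10.5% a 16HBE14o- peak. A peak as strong as the strongest of GCLM was in 0.0967% of them in Calu3 and in 0.252% in 16HBE14o-. These are 23 and 60 windows.

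GCLC, the catalytic subunit of the same enzyme, differed from its partner in where its strongest peak lay. The strongest was about 3 kb upstream of the start-side end in both lines. In Calu3 it ran from 53412739 to 53413318 on chromosome 6, with a fold enrichment of 12.1 and a −log10 q of 50.9, at rank 697. In 16HBE14o- it ran from 53412912 to 53413151, with a signal of 60.5, at rank 430. The summits were 19 bp apart, and the peak was above 93.2% of the Calu3 list and 87.4% of the 16HBE14o- list. An antioxidant response element some distance upstream of GCLC has been described, and the promoter window shown above, which had no match, does not reach that far.

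Calu3 had a pair of weaker GCLC peaks with no counterpart. The nearest to the start, from 53409769 to 53410018, was within 1 kb of it and had a fold enrichment of 4.23 at rank 4977, near the middle of the list. Its summit was 3141 bp from the closest 16HBE14o- summit, which is the upstream peak just described. The other, from 53431660 to 53431813, lay 22 kb upstream, on the side where the noncoding gene KILH follows in RefSeq, with a fold enrichment of 3.38 at rank 6966 and a deposited q of 0.0188. By position alone it cannot be given to GCLC. Of 19760 windows as wide as that of GCLC, 32.2% held a Calu3 peak and 12.3% a 16HBE14o- peak. A peak as strong as the strongest of GCLC was in 3.3% of them in Calu3 and in 2.03% in 16HBE14o-, more often than at GCLM or SLC7A11.

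**Figure D2:**
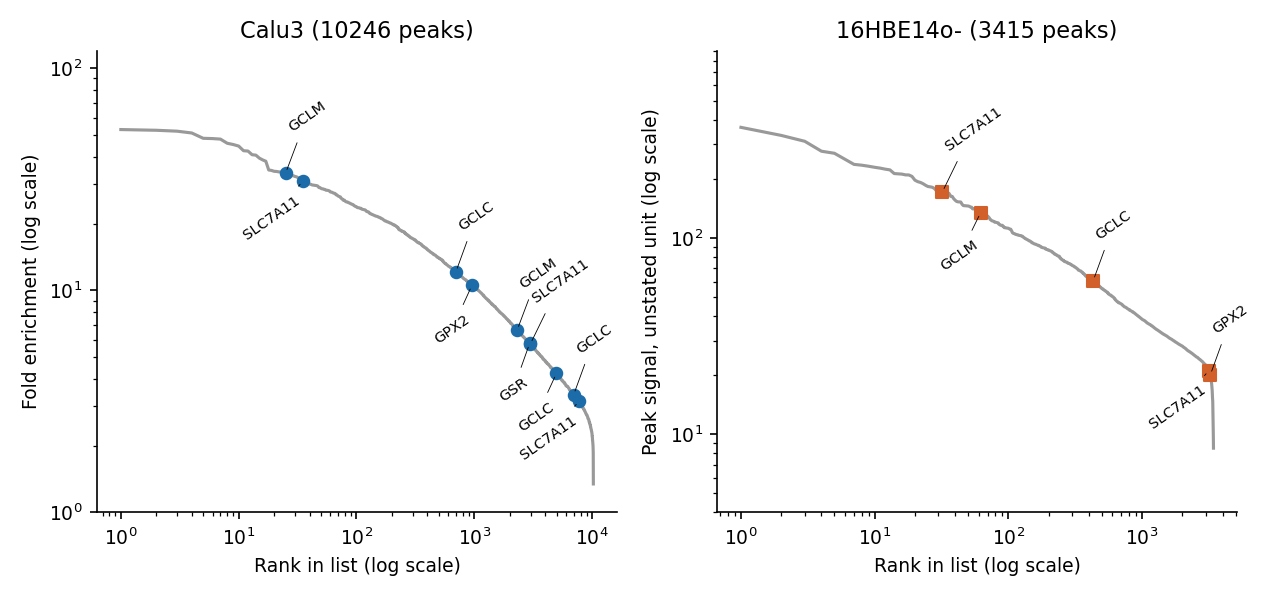
The curves show all peaks of each list by rank and strength, both on log axes, with fold enrichment for Calu3 and a peak signal of unstated unit for 16HBE14o-. Points mark the 10 and 5 peaks in the gene windows: the strongest of GCLM and SLC7A11 rank 25 and 35 in Calu3 and 62 and 32 in 16HBE14o-, followed by those of GCLC at 697 and 430.

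GPX2, the epithelial peroxidase, had 1 peak in each list, and they were at different places. The Calu3 peak, from 65409364 to 65409773 on chromosome 14, was within 1 kb of the start-side end, where the promoter holds GCTAAGTCA. It had a fold enrichment of 10.5 and a −log10 q of 32.3, ranked 955 and was above 90.7% of the list. The 16HBE14o- peak, from 65453490 to 65453729, lay 44 kb upstream, on the side where RAB15 is the next gene in RefSeq, and was among the weakest of its list with a signal of 20.03 at rank 3230 of 3415. The summits were 44036 bp apart. Where RAB15 and other genes lie on hg19 was not analysed, so the 16HBE14o- peak cannot be given to GPX2 by position alone. Of 27862 windows of this width, 25% held a Calu3 peak and 9.18% a 16HBE14o- peak. A Calu3 peak as strong as that of GPX2 was in 3.24% of them, and a 16HBE14o- peak as strong was in 8.86%, almost every window with a peak.

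GSR, which regenerates reduced glutathione, had the lowest fold enrichment among the strongest Calu3 peaks of the 5 genes. Its only peak was in Calu3, from 30585258 to 30585582 on chromosome 8, within 1 kb of the start-side end, with a fold enrichment of 5.77, a −log10 q of 5.86 and rank 2951, above 71.2% of the list. UBXN8 is the next gene beyond this end in RefSeq, so the peak cannot be given to GSR by position alone. The same limit holds for the start-side peaks of the other genes, since RefSeq lists a next gene beyond each of those ends. How far these neighbours lie from the peaks on hg19 was not analysed. No 16HBE14o- peak lay in the window, and the closest was 590508 bp from the Calu3 summit. Of 19369 windows as wide as that of GSR, 12.3% held a 16HBE14o- peak and 32.5% a Calu3 peak, and 13% held a Calu3 peak at least as strong. Since the read depth is unknown, the missing 16HBE14o- peaks at the starts of GSR and GPX2 were not detected there and are not shown to be absent.

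**Figure D3:**
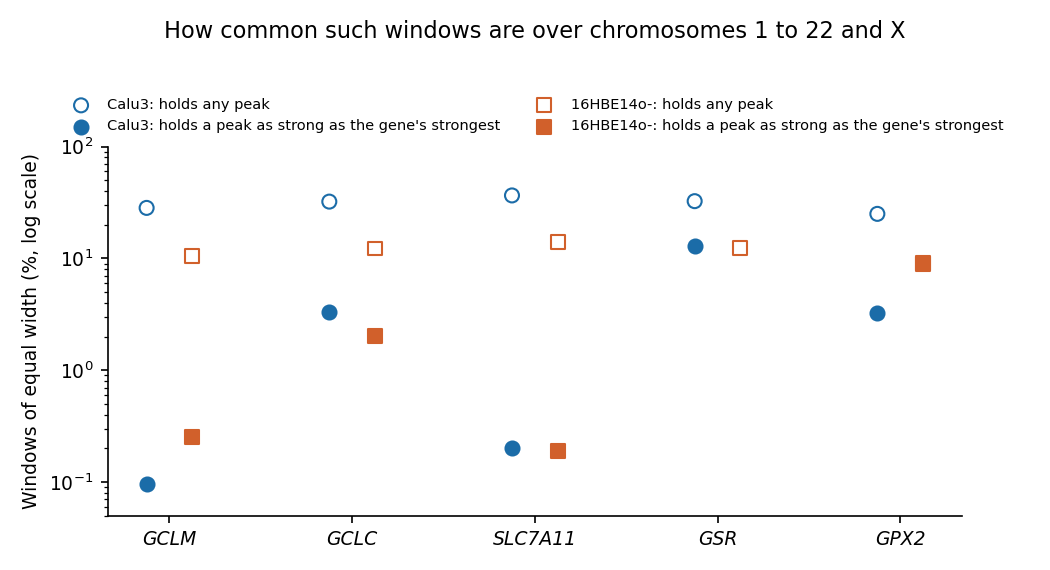
Open symbols give the percentage of equally wide windows over chromosomes 1 to 22 and X (log axis) that hold any peak, and filled symbols the percentage with a peak at least as strong as the strongest of the gene. The filled values follow largely from the rank of that strongest peak. For GCLM and SLC7A11 the filled symbols lie between 0.0967% and 0.252%, and for GPX2 in 16HBE14o- the filled symbol (8.86%) lies close to the open one (9.18%).

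By their strongest peak, GCLM and SLC7A11 came before GCLC within each list, while the GPX2 peaks of the lists were at different places. In Calu3 the fold enrichment was 33.7 for GCLM, 31.0 for SLC7A11, 12.1 for GCLC, 10.5 for GPX2 and 5.77 for GSR. In 16HBE14o- the signal was 171 for SLC7A11, 135 for GCLM, 60.5 for GCLC and 20.03 for the distant peak in the GPX2 window, with none for GSR. GCLM and SLC7A11 exchanged places between the lists. Without replicate values it cannot be said which neighbours in either order differ.

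Of the 5 peaks of 16HBE14o- in these windows, 4 met a Calu3 peak by at least 1 bp (80.0%, 95% exact Clopper-Pearson interval 28.4 to 99.5), against 46.4% of its whole list. Of the 10 Calu3 peaks, 4 met a 16HBE14o- peak (40.0%, interval 12.2 to 73.8), against 15.3% of the whole list. The intervals are wide and hold both background shares. They cover counting error only and treat the peaks as independent, although several share a gene. With so few peaks, a difference from the whole lists is neither shown nor excluded. The pairs were at GCLM, at GCLC upstream of the start, and at both sites of SLC7A11. Their summit gaps were 13 to 30 bp, and those of all 1585 pairs had a median of 19 bp (interquartile range 9.0 to 36.0).

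**Figure D4:**
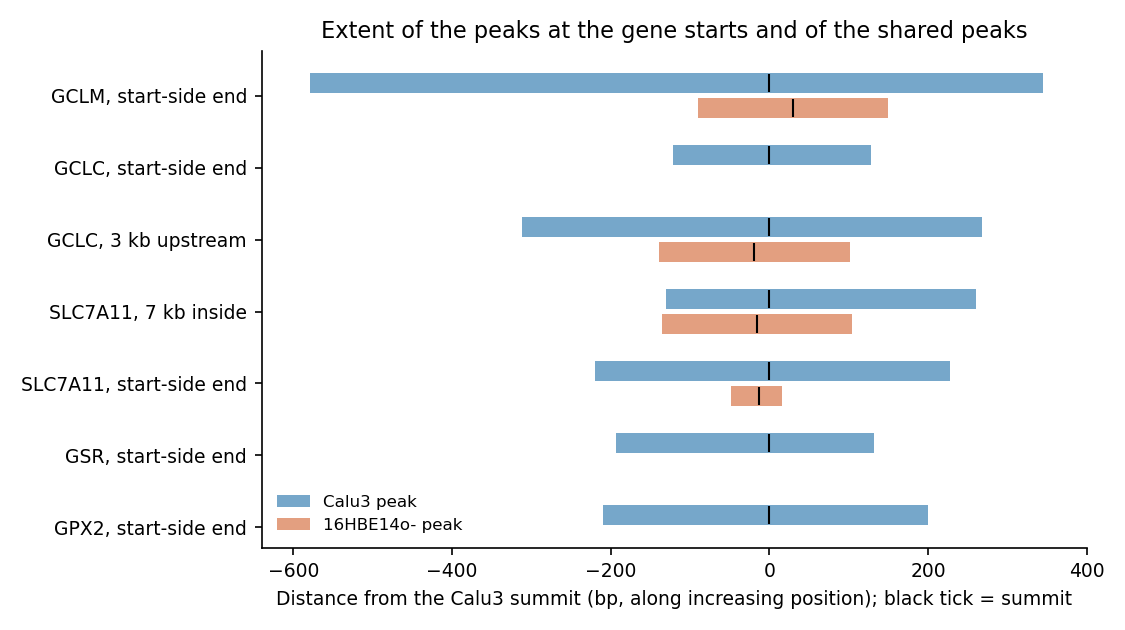
Bars show how far each peak extends from the Calu3 summit (bp), for the peaks at the gene starts and the shared peaks, with Calu3 above, 16HBE14o- below and a black tick at each summit. The summits of the 4 pairs are 13 to 30 bp apart although the Calu3 peaks are 390 to 924 bp wide and those of 16HBE14o- 64 or 240 bp.

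The window edges left out a few Calu3 peaks. The closest, from 94429204 to 94429544 on chromosome 1, was 4.4 kb outside the GCLM window with a fold enrichment of 8.79 at rank 1383. The strongest, from 53480434 to 53481187 on chromosome 6, was 20.6 kb outside the GCLC window and 71 kb from the gene, with a fold enrichment of 16.7 at rank 319, above every peak inside that window. Inside the windows, the peak closest to an edge was the GPX2 peak of 16HBE14o-, 44 kb from the gene.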

How the data were processed

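Per the labels, the authors joined 2 replicates of a line by the irreproducible discovery rate, a method that compares the ranks of peaks between replicates. The submitters' processing notes name hg19 as the build. No aligner, peak caller or control library is named in the labels or file headers, and read depth is unknown. The Calu3 columns that the authors deposited were read, from their format and values, as a fold enrichment (ratio) and as −log10 of p and of q. The authors' deposited 16HBE14o- columns are a peak signal of unstated unit and, in the place of q, a score from -0.142 to 3.34. They rank peaks only within their own list, and ties take the best rank.

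A summit was the deposited start plus the summit offset. Coordinates are 1-based, on hg19 unless named otherwise. The rule named all 5 genes with every peak in their windows. Other pathway genes and a genome of this build were not analysed here. Of the 5 genes, 3 matched the RefSeq promoter table. No test was run: genes, windows and motifs were chosen with earlier results of these data known, and each line is 1 list. Python 3.11.15, numpy 2.4.6, pandas 2.3.3 and scipy 1.17.1 were used, and the code for overlaps, windows and ranks was tested on simulated data. Alternatives changed the window rule and width, merging, ranking column, overlap rule, list length and tile offset.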

Additional observations from a re-analysis of the deposited data

How the results depend on the processing

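The number of peaks in the windows stayed within 1.5 times its value under 9 of 10 alternatives. It was 10 in Calu3 and 4 in 16HBE14o- with 25 kb taken off each side, which drops the distant GPX2 peak, and 14 and 5 with 50 kb added. Keeping peaks at or above the median strength left 8 in Calu3 and 3 in 16HBE14o-, by construction those of GCLM, GCLC and the SLC7A11 start in the latter. With a reciprocal overlap of 50%, 1 pair was left, the inner site of SLC7A11, so that 10% of the Calu3 and 20% of the 16HBE14o- peaks were shared, against 12.6% and 37.8% of the whole lists. The other 3 Calu3 peaks were 2.42 to 7 times as wide as their counterparts, which prevents such an overlap whatever the position of the summits. The remaining 6 settings kept 4 shared peaks in each line, among them summits within 100 bp. Ranking Calu3 by −log10 p or −log10 q moved SLC7A11 from rank 35 to 71, GCLM from 25 to 31, GCLC from 697 to 489, GPX2 from 955 to 907 and GSR from 2951 to 3919. In 16HBE14o- the score in the q column put the strongest peaks of GCLM, GCLC and SLC7A11 in a tie of 1055 peaks at its highest value. Shifting the tiles moved none of the 10 window shares beyond its counting interval. No paired analysis was possible because the replicates of a line are merged in a single list, and for that reason no replicate could be left out.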
